A study of Xenopus tropicalis with 24 samples.

Results

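The tail stumps of climax tadpoles (stage 61) were compared between TRDKO61 and WT61 animals 24 h after amputation, when a blastema begins to form. The comparison was defined by genotype, stage and time, and it used 4 of the 24 RNA-seq libraries, 2 of WT61 and 2 of TRDKO61. WT61 tadpoles were wild type *Xenopus tropicalis* from purchased adults, and TRDKO61 tadpoles lacked both TRα and TRβ and came from matings of TRα(-/-)β(+/-) frogs. WT61 is the nonregenerating group and TRDKO61 a regenerating group of the study. All 4 libraries came from amputated tails, and each sample held the new tissue with a short piece of the old stump as whole tissue. Genotype and family of origin therefore cannot be told apart, and TRDKO tadpoles were genotyped from a tail clip while no clip is described for WT tadpoles. The sources differ on whether the 2 libraries of a group were separate samples of tadpoles or 2 preparations of the same RNA, so the p-values measure the spread between these libraries, which may be technical.

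Thyroid hormone (T3) drives metamorphosis in frogs through its receptors TRα and TRβ, transcription factors that repress their target genes without hormone and activate them when T3 is bound. Circulating T3 peaks at the climax, when the tadpole tail is resorbed by proteases, its larval epidermis is replaced or removed, and the capacity to regenerate the tail is lost. Well-known direct targets in the tail include *thrb* itself, *thibz* (a leucine zipper factor), *klf9*, *dio3* (the deiodinase that inactivates T3) and the matrix metalloproteinase *mmp11*, while *dio2* encodes the deiodinase that makes T3 from its precursor.

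The WT61 libraries held 15766051 and 9837250 counts, and the TRDKO61 libraries 20731438 and 18930591. Across genes, log2 levels correlated at 0.986 between the WT61 libraries, at 0.982 between the TRDKO61 libraries and at 0.953 to 0.959 between genotypes. Levels are given below as CPM, read counts scaled to the size of each library, for the first and the second library of a group. A DEG has an FDR under 0.05 and an absolute log2 fold change (log2 FC, TRDKO61 over WT61) over 1, in an edgeR quasi-likelihood fit to the 12 libraries of stage 61. Markers of muscle (*ckm*, *mylpf*, *actn3*), epidermis (*tp63*), leukocytes (*ptprc*), endothelium (*cdh5*) and pigment cells (*pmel*) were present in every library. The notochord and cartilage marker *col2a1* was also present, at 99.4 and 87.7 CPM in WT61 and 19.9 and 58.6 in TRDKO61 (FDR = 0.20). The cartilage marker *acan* was at or below 1.28 CPM in each library.

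At 24 hpa, 668 of 16633 genes were DEGs (4.02%). Of these, 298 were higher in TRDKO61 (1.79% of the genes tested) and 370 were lower (2.22%). The WT61 and the TRDKO61 libraries did not overlap at any of the 668. This adds no support, since the DEGs were chosen by that difference and the share without overlap among all genes was not counted. In a bulk sample, fewer cells of a type and less RNA per cell cannot be told apart. The DEGs included 7 lower T3 response genes, of which 4 were matrix metalloproteinases, 6 lower mucus genes, keratins and lysosomal enzymes in both directions, and 24 higher genes for making ribosomes. With 1 library left out the number of DEGs was 143 without WT61 replicate 1, 316 without WT61 replicate 2, 363 without TRDKO61 replicate 1 and 426 without TRDKO61 replicate 2. The genes selected for naming held 82 DEGs, some of which are not reported here. Of the 82, 31 kept their call in each of 12 alternative fits, among them *thibz*, *fap*, *dpp4*, *gusb*, *bgn*, *itga11*, *krt50*, *krt78.7*, *rpf2* and *utp3*. These 12 fits do not include the test of the fold itself against a log2 FC of 1. The calls of the other 51 were lost in at least 1 of them, 47 without WT61 replicate 1, 34 without WT61 replicate 2, 36 without TRDKO61 replicate 1 and 26 without TRDKO61 replicate 2, although none of the 82 changed direction.

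**Figure D1:**
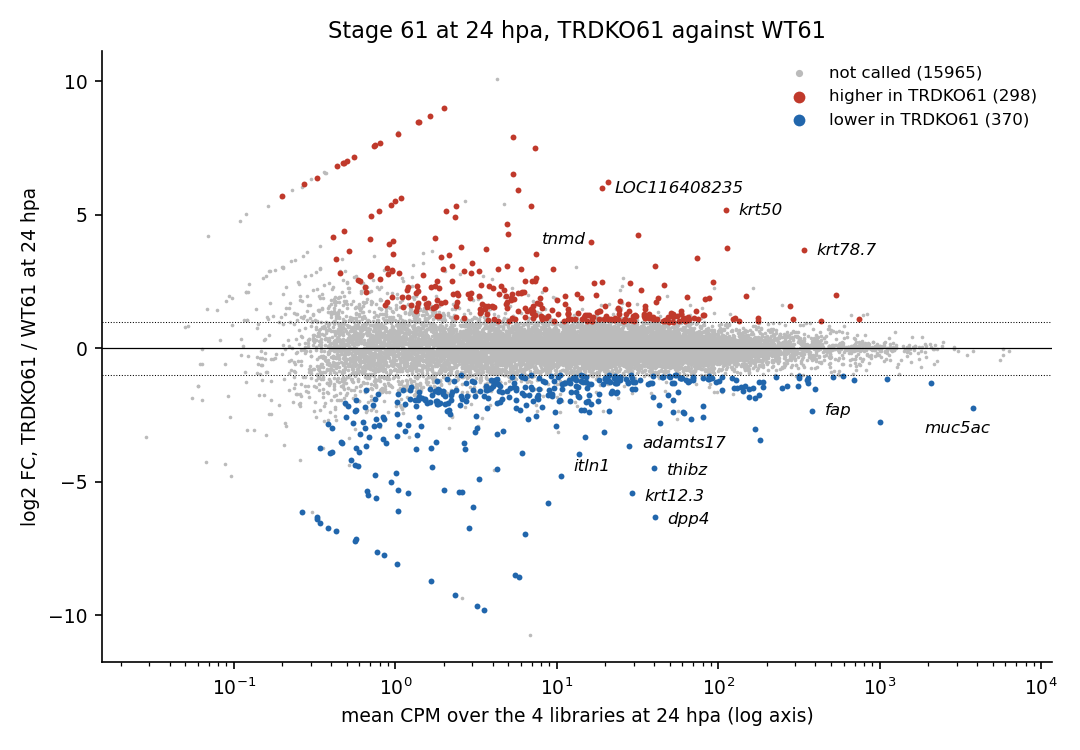
Each point is a gene, with its mean CPM over the 4 libraries on the log x axis and its log2 FC (TRDKO61 over WT61 at 24 hpa) on the y axis; dotted lines mark log2 FC of 1 and -1. The 298 higher DEGs are red and the 370 lower DEGs blue, and the fitted values along the outer diagonals, where a group had almost no counts, are not measured folds.

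The targeted genes were checked before any other. *thra* (chromosome 10, 9063035 to 9190651, coordinates as deposited) was at 10.3 and 10.7 CPM in WT61 and at 8.07 and 7.52 in TRDKO61, a log2 FC of -0.42 ± 0.16 (SE, FDR = 0.15). *thrb* (chromosome 6, 46687270 to 46933187) was at 159 and 120 CPM in WT61 and 82.4 and 102 in TRDKO61 (log2 FC -0.59 ± 0.20, FDR = 0.10). Both receptors were thus still transcribed in TRDKO61, so the transcript levels do not report the loss of the proteins. Neither difference passed the test.

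T3 response genes had the largest share of lower DEGs of all the gene lists. Of 21 members tested, 7 fell (beside 2.22% of all genes) and none rose. A negative log2 FC was found for 19, and the median log2 FC was -0.82 beside 0.02 over all genes tested. *thibz* (chromosome 3, 140193605 to 140202878) was at 75.4 and 77.1 CPM in WT61 and at 2.16 and 4.76 in TRDKO61, a log2 FC of -4.47 ± 0.43 (FDR = 0.0014). *fap*, which encodes a membrane serine protease of the stroma, was at 721 and 546 CPM in WT61 and at 144 and 106 in TRDKO61 (log2 FC -2.33 ± 0.27, FDR = 0.0018). *dio2* was at 108 and 66.4 CPM in WT61 against 11.3 and 22.5 in TRDKO61 (log2 FC -2.37 ± 0.54, FDR = 0.033). The calls of *thibz* and *fap* were kept in each of the 12 alternative fits. That of *dio2* was lost with any 1 library left out and without the filter. Its log2 FC ran from -2.955 to -1.964 over the 12 fits. With 1 library left out, between 2 (without WT61 replicate 1) and 4 members remained below the threshold, 3 without TRDKO61 replicate 1, while the median stayed between -0.90 and -0.77.

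Some T3 targets did not pass the test at this time. *klf9*, a Krüppel-like factor, was at 21.4 and 30.8 CPM in WT61 and at 10.3 and 18.7 in TRDKO61 (log2 FC -0.84 ± 0.35, FDR = 0.18). *dio3* was at 106 and 79.5 CPM in WT61 and at 94.8 and 90.1 in TRDKO61, so that the groups overlapped. At 0 hpa *dio3* had been at 127 and 99.1 CPM in WT61 and at 54.0 and 44.5 in TRDKO61, a log2 FC of -1.20 that passed the test there. Of 28 genes of the machinery for T3 signalling (receptors, partners, corepressors, coactivators, transporters and deiodinases), only *dio2* was a DEG. That share, 3.57%, was close to the 4.02% of all genes.

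Collagenases and other matrix metalloproteinases (MMPs), which cut the matrix during tail resorption, were lower in TRDKO61 where they passed the test. Of 28 MMPs and their inhibitors tested, 4 fell (beside 2.22% of all genes), none rose and the median log2 FC was -0.39. All 4 are also among the 7 T3 response genes that fell, and the count was 0 without WT61 replicate 1, 1 without TRDKO61 replicate 1 and 2 without either of the other libraries. *mmp14*, the membrane-bound MMP that activates others, was at 1653 and 1393 CPM in WT61 and 640 and 744 in TRDKO61 (log2 FC -1.13 ± 0.20, FDR = 0.0091). *mmp11* (stromelysin-3) was at 245 and 214 CPM against 91.1 and 68.5 (log2 FC -1.52 ± 0.27, FDR = 0.0091). *mmp13*, a collagenase, was at 24.3 and 22.9 CPM in WT61 and 3.75 and 5.76 in TRDKO61 (log2 FC -2.31 ± 0.44, FDR = 0.014). *mmp9.2*, a gelatinase, was at 316 and 210 CPM against 61.5 and 83.6 (log2 FC -1.85 ± 0.42, FDR = 0.028). The related *mmp13l* (415 and 287 CPM against 221 and 229, FDR = 0.66) and the collagenase *mmp1* (902 and 944 against 494 and 688, FDR = 0.40) did not pass the test.

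**Figure D2:**
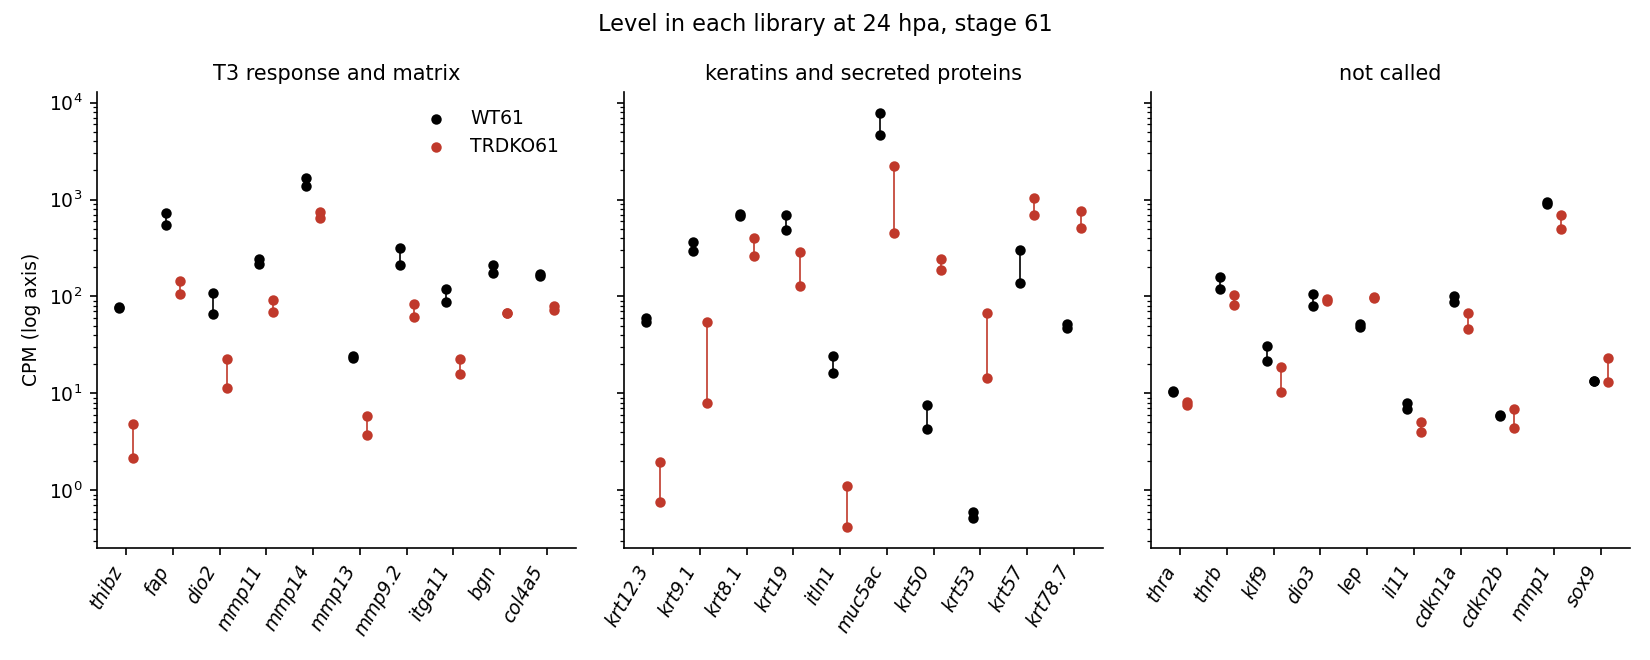
CPM on a log axis for 30 named genes in the 2 WT61 libraries (black) and the 2 TRDKO61 libraries (red) at 24 hpa, with a line joining the libraries of a group. The genes in the left and middle panels are DEGs whose groups do not overlap, and the right panel holds genes that did not pass the test, such as *dio3* and *sox9*, where the groups overlap.

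Proteases and hydrolases outside the MMP family also moved. *dpp4*, a relative of *fap* that removes dipeptides from peptide ends, had the lowest log2 FC of the genes with a mean of at least 10 CPM, from 84.2 and 74.98 CPM in WT61 to 1.17 and 0.80 in TRDKO61 (log2 FC -6.30 ± 0.43, FDR = 0.00027). Both genes lie on chromosome 9, *fap* at 71953628 to 72000797 and *dpp4* at 72042477 to 72102914. *adamts17*, a secreted metalloproteinase, went from 61.8 and 42.4 CPM to 3.04 and 5.26 (log2 FC -3.66 ± 0.40, FDR = 0.0019). Of 37 cathepsin and lysosome genes, 3 fell and 2 rose (beside 2.22% and 1.79% of all genes). Of the fits with 1 library left out only that without TRDKO61 replicate 2 kept the call of the 2 that rose. The 3 that fell were the glycosidases *gusb* (243 and 240 CPM in WT61, 65.7 and 70.9 in TRDKO61, log2 FC -1.82 ± 0.16, FDR = 0.00054), *hexb* (log2 FC -1.18 ± 0.17) and *glb1* (log2 FC -1.09 ± 0.16), the last being the beta-galactosidase assayed in senescent cells. The 2 that rose were the cysteine proteases *ctsh* (38.3 and 33.1 CPM against 146 and 113, log2 FC 1.86 ± 0.34, FDR = 0.011) and *ctsl* (38.9 and 42.3 against 123 and 86.6, log2 FC 1.38 ± 0.28, FDR = 0.018). Without the limit on the fold, 16 of the 37 were lower at an FDR under 0.05 and 2 higher, where 3.97% and 4.33% of all genes tested were.

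Matrix genes and their receptors held DEGs in both directions. In the ECM-receptor interaction list, 5 of 72 genes fell and 2 rose (beside 2.22% and 1.79% of all genes), 65 were not DEGs, and the median log2 FC was -0.28. Of these 7 only *itga11* kept its call in each of the 12 alternative fits, and *col4a5* and *col6a1* lost theirs with any 1 library left out. Over the 12 fits the log2 FC ran from -1.192 to -1.075 for *col4a5* and from -1.359 to -1.09 for *col4a6*. It ran from -1.533 to -0.7998 for *fras1* and from -1.986 to -1.51 for *itga10*. For *itga8* it ran from 1.3 to 2.086 and for *col6a1* from 0.8288 to 1.26. The collagen receptor subunit *itga11* was at 118 and 87.9 CPM in WT61 and at 22.3 and 15.99 in TRDKO61 (log2 FC -2.42 ± 0.30, FDR = 0.0024), and its relative *itga10* at 16.8 and 11.9 against 4.45 and 3.96 (log2 FC -1.77 ± 0.31, FDR = 0.0083). The basement membrane collagens *col4a5* (161 and 172 CPM against 73.2 and 78.8, log2 FC -1.12 ± 0.23, FDR = 0.015) and *col4a6* (138 and 145 against 55.3 and 66.7, log2 FC -1.21 ± 0.22, FDR = 0.010) fell by similar amounts. The fifth was *fras1*, an epidermal basement membrane protein (log2 FC -1.10 ± 0.28, FDR = 0.036). The 2 that rose were *itga8* (10.5 and 12.33 CPM against 28.0 and 48.4, log2 FC 1.76 ± 0.40, FDR = 0.030) and *col6a1* (327 and 240 against 510 and 645, log2 FC 1.03 ± 0.26, FDR = 0.035). Of 31 dermal collagens and partners, 2 fell and 1 rose (beside 2.22% and 1.79% of all genes), with 14 positive and 17 negative log2 FC and a median of -0.03. The proteoglycan *bgn* fell (211 and 173 CPM against 67.9 and 67.3, log2 FC -1.50 ± 0.15, FDR = 0.0009). *col14a1* fell as well (449 and 401 against 239 and 173, log2 FC -1.04 ± 0.28, FDR = 0.046), and *col6a1* rose. The call of *col14a1* was lost with any 1 library left out. Its log2 FC ran from -1.303 to -0.8383 over the 12 alternative fits. *tnmd*, a membrane protein of tendon cells, was among the highest folds, from 1.59 and 2.37 CPM in WT61 to 35.4 and 25.8 in TRDKO61 (log2 FC 3.99 ± 0.62, FDR = 0.0068). *fibin*, a secreted protein known from zebrafish fin buds, was at 22.4 and 21.2 CPM in WT61 and 27.6 and 31.9 in TRDKO61 (FDR = 0.13).

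The epidermis and keratin list, a list of cell type markers, had DEGs in both directions, 6 higher and 7 lower of 65 tested (beside 1.79% and 2.22% of all genes). Without WT61 replicate 1 these became 2 and 1, without TRDKO61 replicate 1 they became 3 and 1, and without WT61 replicate 2 they became 3 and 2. Keratins form the intermediate filaments of epithelial cells, and frogs use different members in larval and adult skin. The keratins that rose included *krt50* (chromosome 10, 8253914 to 8257730), which went from 7.50 and 4.24 CPM in WT61 to 245 and 188 in TRDKO61 (log2 FC 5.17 ± 0.47, FDR = 0.0011), and *krt78.7*, from 52.4 and 46.7 CPM to 755 and 506 (log2 FC 3.68 ± 0.36, FDR = 0.0010). *krt53* went from 0.51 and 0.59 CPM to 67.3 and 14.4, a wide spread within TRDKO61 (log2 FC 6.23 ± 1.21, FDR = 0.019), and *krt57* from 137 and 299 to 693 and 1029 (log2 FC 1.99 ± 0.36, FDR = 0.010). In the other direction, *krt12.3* went from 59.5 and 54.3 CPM in WT61 to 0.75 and 1.95 in TRDKO61 (log2 FC -5.42 ± 0.83, FDR = 0.0076). *krt9.1* went from 296 and 368 CPM to 7.86 and 54.1 (log2 FC -3.43 ± 0.86, FDR = 0.044), *krt19* from 488 and 694 to 129 and 285 (log2 FC -1.51 ± 0.36, FDR = 0.031), and *krt8.1* from 670 and 712 to 259 and 398 (log2 FC -1.07 ± 0.22, FDR = 0.017). The summed level of the whole list overlapped between genotypes, at 23355 and 28336 CPM in WT61 and 21284 and 26959 in TRDKO61, and *tp63*, the regulator of the epidermal lineage, was at 288 and 300.4 CPM against 228 and 314. Keratin genes lie in families of close copies, and how the counting shared reads between copies was not stated, so the level of a single keratin is uncertain.

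Among 21 genes of mucus-secreting cells, 6 fell (28.6%, beside 2.22% of all genes) and none rose in TRDKO61. The count describes these data and is no independent support. This list was drawn up after the values were seen, 16 of its members had a negative log2 FC, the median was -0.57, and 2 or 3 members passed the test with 1 library left out. *muc5ac*, a gel-forming mucin, was at 4675 and 7882 CPM in WT61 and at 450.2 and 2202 in TRDKO61 (log2 FC -2.24 ± 0.58, FDR = 0.045). The mucin *muc2* was at 13.9 and 17.6 CPM against 5.74 and 6.97 (log2 FC -1.30 ± 0.22, FDR = 0.0076). *itln1*, a sugar-binding lectin, was at 24.5 and 16.4 CPM against 0.42 and 1.10 (log2 FC -4.77 ± 0.49, FDR = 0.0012), and *olfm4*, a secreted glycoprotein, at 318 and 281 against 51.7 and 21.1 (log2 FC -3.03 ± 0.61, FDR = 0.021). The lectin *itln1* is also counted among the lower DEGs of the epidermis and keratin list above. Levels of *muc5ac* and *olfm4* spread widely between the TRDKO61 libraries, and the call for both was lost in some alternative fits.

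Genes for making ribosomes included higher DEGs and no lower ones. This list was also drawn up after the values were seen, so its count describes these data and is no independent support. Of 123 genes that process ribosomal RNA or assemble ribosomal subunits, 24 rose (19.5%, beside 1.79% of all genes), none fell, 121 had a positive log2 FC, and the median was 0.80. Over the 123 genes the log2 FC ran from -0.40 to 1.41. *rpf2*, an assembly factor of the large subunit, was at 38.8 and 41.1 CPM in WT61 and at 91.4 and 87.2 in TRDKO61 (log2 FC 1.17 ± 0.13, FDR = 0.0014). *utp3*, a processing factor of the small subunit, was at 31.1 and 37.2 CPM against 75.8 and 79.3 (log2 FC 1.19 ± 0.15, FDR = 0.0021), the nucleolar protein *rsl1d1* at 31.01 and 33.8 against 69.2 and 75.6 (log2 FC 1.17 ± 0.14, FDR = 0.0021), and *nufip1*, which assembles small nucleolar RNPs, at 24.6 and 25.6 against 54.4 and 52.1 (log2 FC 1.09 ± 0.14, FDR = 0.0023). Without the limit on the fold, 70 of the 123 were higher and 0 lower. The count of 24 fell to 6 without WT61 replicate 1 and to 12 without TRDKO61 replicate 1, while the median stayed between 0.69 and 0.89 with each library left out.

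**Figure D3:**
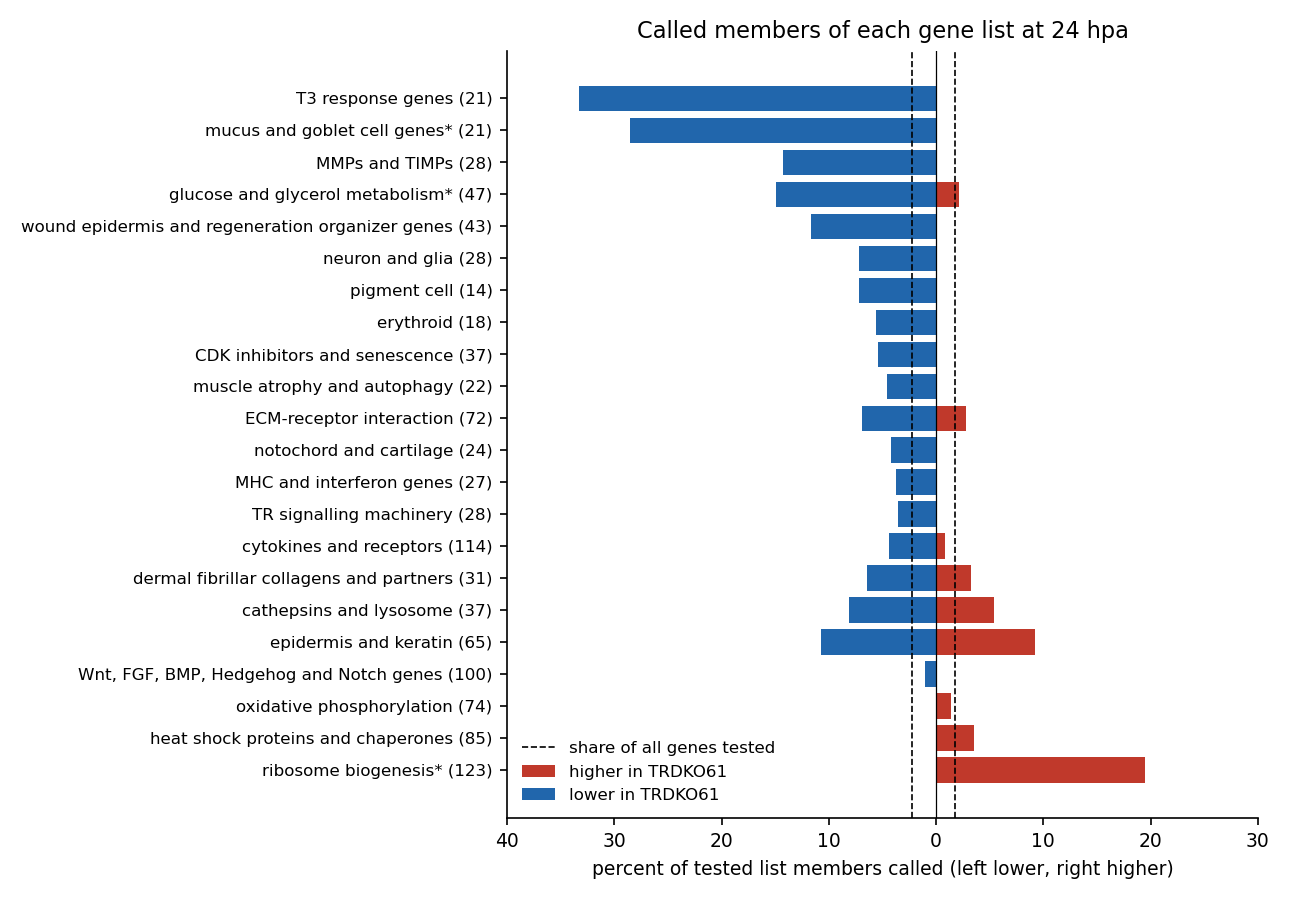
For each gene list with at least 1 DEG (tested members in parentheses), bars give the percent of members called lower (blue, left) or higher (red, right) in TRDKO61 at 24 hpa; dashed lines are the shares of all genes tested, 2.22% and 1.79%. Asterisks mark the 3 lists drawn up after the values were seen; T3 response genes reach furthest to the left and ribosome biogenesis furthest to the right.

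Genes of glucose and glycerol metabolism, the last list drawn up after the values were seen, held 7 lower and 1 higher DEG of 47. The shares of all genes were 2.22% and 1.79%, and the median log2 FC of the list was -0.07. The count describes these data and is no independent support. Over the 12 alternative fits the log2 FC ran from -4.61 to -3.07 for *pck1* and from 0.93 to 1.49 for *pdk4*, and both calls were lost in some of them. *pck1*, the rate-limiting enzyme of gluconeogenesis, was at 6.31 and 16.7 CPM in WT61 and at 0.46 and 1.05 in TRDKO61 (log2 FC -3.91 ± 0.64, FDR = 0.0076). The glucose transporter *slc2a2* was at 8.01 and 8.58 CPM against 0.67 and 1.30 (log2 FC -3.08 ± 0.36, FDR = 0.0019), and the glycerol-3-phosphate dehydrogenase *gpd1* at 90.7 and 79.6 against 25.4 and 29.0 (log2 FC -1.64 ± 0.16, FDR = 0.00096). *pfkfb4*, a regulator of glycolysis, was at 443 and 464 CPM against 161 and 176 (log2 FC -1.42 ± 0.22, FDR = 0.0051). The gene that rose was *pdk4*, an inhibitor of pyruvate oxidation (43.5 and 52.0 CPM against 91.3 and 134, log2 FC 1.25 ± 0.29, FDR = 0.030). *fbxo32*, a ubiquitin ligase of wasting muscle, was the only DEG of 22 atrophy and autophagy genes (4.55%, beside 4.02% of all genes). It was at 172 and 196 CPM in WT61 and 51.8 and 78.5 in TRDKO61 (log2 FC -1.49 ± 0.20, FDR = 0.0032).

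Of 114 cytokines and receptors tested, 5 fell and 1 rose (5.26% together, beside 4.02% of all genes), with a median log2 FC of -0.07. *il34*, a ligand that sustains macrophages, was at 15.7 and 7.79 CPM in WT61 and at 3.58 and 3.56 in TRDKO61 (log2 FC -1.73 ± 0.26, FDR = 0.0049). The receptor of ciliary neurotrophic factor, *cntfr*, had a log2 FC of -1.62 ± 0.34 and the receptor subunit *il20rb* of -1.05 ± 0.23. The TNF receptor family member *tnfrsf4* had a log2 FC of -1.81 ± 0.45 and the chemokine *cxcl2* of -2.36 ± 0.60. *cxcl2* was chosen after its values were seen, and its level was low. It had 18 and 9 counts in WT61 (1.02 and 0.89 CPM) and 6 and 2 in TRDKO61 (0.25 and 0.10 CPM). With any 1 library left out *cntfr*, *tnfrsf4* and *cxcl2* lost their calls. *il20rb* lost its call without WT61 replicate 2 or TRDKO61 replicate 1, and *il34* kept its call throughout. The leptin receptor *lepr* rose, from 6.70 and 5.13 CPM to 11.3 and 33.2 (log2 FC 1.89 ± 0.42, FDR = 0.028). Its call was lost without the filter and in the fits to the 4 and to the 8 libraries at 24 hpa. It was also lost without WT61 replicate 1, WT61 replicate 2 or TRDKO61 replicate 2. Over the 12 alternative fits its log2 FC ran from 0.91 to 2.46. *lep*, which encodes the ligand of *lepr*, was at 52.3 and 47.9 CPM in WT61 and 97.8 and 95.9 in TRDKO61, a log2 FC of 0.96 ± 0.36 that missed the threshold (FDR = 0.14). *il11*, a cytokine needed for tail regeneration in *Xenopus laevis*, was at 7.95 and 6.91 CPM against 3.95 and 5.01 (FDR = 0.38), and *il17c* at 1.76 and 5.92 against 0.46 and 0.80 (FDR = 0.16). *nfkbia* (139 and 199 CPM against 102 and 118, FDR = 0.35) and *traf1* (11.5 and 18.4 against 8.28 and 7.32, FDR = 0.072), both in NF-kB signalling, did not pass the test.

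Genes of the cell cycle, its arrest and cell death held 2 DEGs, where 4.02% of all genes tested were DEGs. Of 49 DNA replication genes and 57 mitosis genes none was a DEG, with median log2 FC of 0.21 and -0.27. An unadjusted p under 0.05 was given by 6 and 3 of them, where 4098 of all 16633 genes tested gave one. DESeq2 called 0 and 1. *cdk2* was at 17.3 and 13.3 CPM in WT61 and 26.5 and 16.7 in TRDKO61 (FDR = 0.23), and *cdca8*, of the chromosomal passenger complex, at 8.69 and 5.53 against 7.41 and 6.87. Of 37 genes of the CDK inhibitor and senescence list, *glb1* and the CDK inhibitor *cdkn2d* (29.9 and 24.96 CPM against 13.6 and 11.02, log2 FC -1.15 ± 0.23, FDR = 0.013) fell. *cdkn1a*, which encodes the p21 inhibitor, was at 87.2 and 102 CPM in WT61 and at 46.6 and 66.9 in TRDKO61 (log2 FC -0.73 ± 0.22, FDR = 0.068). *cdkn2b* was at 5.85 and 5.92 CPM against 6.91 and 4.36, *lmnb2* at 8.52 and 7.60 against 13.5 and 9.47 (FDR = 0.31). None of 43 apoptosis genes was a DEG, *bax*, *casp9* and *fas* having FDR values of 0.55, 0.80 and 0.48, and the killer-cell genes *prf1* and *ctsw* had values of 0.86 and 0.42. Of the apoptosis genes 10 had an unadjusted p under 0.05, beside 4098 of the 16633 genes tested, and DESeq2 called 0.

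Among genes of the wound epidermis and of regeneration organizing cells, 5 of 43 fell (beside 2.22% of all genes) and none rose, and the 5 became 0 without WT61 replicate 1, 2 without WT61 replicate 2 or TRDKO61 replicate 1 and 4 without TRDKO61 replicate 2. These were *mmp13*, *krt8.1* and *fras1*, given above, with *cpa6*, a secreted carboxypeptidase, at 120 and 82.2 CPM in WT61 and 24.6 and 13.9 in TRDKO61 (log2 FC -2.38 ± 0.38, FDR = 0.0071), and *nid2*, a basement membrane protein, at 70.4 and 53.3 against 27.9 and 30.8 (log2 FC -1.07 ± 0.20, FDR = 0.011). Of 100 Wnt, FGF, BMP, Hedgehog and Notch genes, only *bmp6* was a DEG (beside 4.02% of all genes), at 7.95 and 6.22 CPM in WT61 and 2.46 and 4.41 in TRDKO61 (log2 FC -1.06 ± 0.28, FDR = 0.044). *sox9*, a factor of cartilage and stem cells, was at 13.5 CPM in both WT61 libraries and at 23.1 and 13.1 in TRDKO61 (FDR = 0.51). *tbxt.2*, a brachyury gene of the notochord and tail bud, fell from 22.4 and 18.5 CPM to 6.91 and 10.2 (log2 FC -1.26 ± 0.25, FDR = 0.013). None of 15 retinoic acid genes and none of 41 proteasome genes was a DEG (beside 4.02% of all genes). Of them 6 and 7 had an unadjusted p under 0.05, beside 4098 of the 16633 genes tested, and DESeq2 called 1 and 0.

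Heat shock proteins and chaperones held 3 higher DEGs of 85 (3.53%, beside 1.79% of all genes) and none lower. *hspb2*, a small heat shock protein of muscle, had no count in either WT61 library and was at 3.08 and 2.46 CPM in TRDKO61, at least 11.9-fold higher against a floor of 3 counts per library. *hsp90aa1.1* was at 8.01 and 10.4 CPM against 23.5 and 20.05 (log2 FC 1.27 ± 0.24, FDR = 0.012), and *dnajc12* at 115 and 107 against 295 and 192 (log2 FC 1.15 ± 0.26, FDR = 0.024). *cox6a2*, the muscle form of a cytochrome oxidase subunit, was the only DEG of 74 genes of oxidative phosphorylation (1.35%, beside 4.02% of all genes). It was at 0.057 and 0 CPM in WT61 and 12.9 and 8.32 in TRDKO61, at least 45.5-fold higher against the same floor. Of the 27 MHC and interferon genes, 1 was a DEG (3.70%, beside 4.02% of all genes). This was *ddx58*, a sensor of viral RNA, which fell from 34.2 and 36.1 CPM to 10.4 and 11.8 (log2 FC -1.66 ± 0.19, FDR = 0.0018).

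Several DEGs with the largest folds carry no gene name. *LOC116408235* was at 0.57 and 0.59 CPM in WT61 and at 30.8 and 44.1 in TRDKO61 (log2 FC 6.01 ± 0.27, FDR = 3.8e-06, the smallest of the comparison), and it had a log2 FC of 6.14 at stage 56 as well. *LOC101730386* fell from 1622 and 1865 CPM to 155 and 356 (log2 FC -2.77 ± 0.43, FDR = 0.0058). The other unnamed genes of that kind were *LOC101730710*, *LOC116408062*, *LOC116408737*, *LOC100488227*, *LOC100487636* and *LOC100489067*, higher by 2.47 to 4.24 on the log2 scale, and *LOC105948087*, *LOC116407545* and *LOC100493748*, with log2 FC of -3.97 to -3.13. Named genes with folds of that size were *tf*, the iron carrier transferrin (42.9 and 13.5 CPM against 190 and 126, log2 FC 2.47 ± 0.55), and *rhcg*, an ammonia channel (55.0 and 97.5 against 8.66 and 12.9, log2 FC -2.81 ± 0.31). In all, 123 of the 298 higher and 118 of the 370 lower DEGs had no gene name.

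Among markers of the other cell types of the tail, 4 lists held no DEG at 24 hpa and 3 held 1 or 2, where 4.02% of all genes tested were DEGs. None of 36 skeletal muscle, 25 macrophage and neutrophil, 16 lymphocyte and 18 endothelium markers was a DEG, with median log2 FC of -0.05, 0.07, 0.31 and -0.08. An unadjusted p under 0.05 was given by 2, 6, 4 and 2 of them, beside 4098 of the 16633 genes tested. DESeq2 called 1 muscle marker and 0 of the others. The summed muscle level was 10575 and 15485 CPM in WT61 and 7442 and 14892 in TRDKO61, so the 2 libraries of each genotype differed from each other by more than the genotypes did. Of 28 neuron and glia markers, *nefm* (4.09 and 3.75 CPM against 1.04 and 1.25) and *elavl3* (3.98 and 4.74 against 1.58 and 0.85) fell, both calls being lost with any 1 library left out, with a summed level of 326 and 318 CPM in WT61 and 260 and 349 in TRDKO61. Of 14 pigment cell markers the receptor *ednrb* fell (14.4 and 9.47 CPM against 2.705 and 3.81, log2 FC -1.88 ± 0.39, FDR = 0.017). Its log2 FC ran from -2.157 to -1.551 over the 12 alternative fits, and its call was lost in some of them. Of 18 erythroid markers *hba-l3* fell, from 1.42 and 1.48 CPM to under the floor of 3 counts, at least 10.5-fold. Its call was lost with DESeq2 and with any 1 library left out. In that list 13 markers had a positive and 5 a negative log2 FC, with a median of 0.34. The sum of the list was 4705 and 3411 CPM in WT61 and 3823 and 6458 in TRDKO61. The part of the cell composition in the results above was not tested.

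Most differences at 24 hpa were already there at the time of amputation. At 0 hpa, which shares no library with 24 hpa, 1519 genes were DEGs between TRDKO61 and WT61 (9.13%), and at 6 hpa 1439 (8.65%). These comparisons and that at 24 hpa came from the same fit and share its estimate of spread, so their calls are not independent. Of the 668 DEGs at 24 hpa, 470 were DEGs in the same direction at 0 hpa (70.4% of the 668 and 30.9% of the 1519), 1 was a DEG in the opposite direction, and 646 had the same sign. At 6 hpa, 429 were DEGs in the same direction and 3 in the opposite one. Over all 16633 genes the log2 FC at 24 hpa correlated with that at 0 hpa at r = 0.72, a value across genes, which are not independent. At 0 hpa 808 of the 16633 genes were lower DEGs. Of 28 neuron and glia markers 15 were, with a median log2 FC of -1.66, and 6 of 36 muscle markers were, with a median of -0.98. Of 18 endothelium markers 2 were, with a median of -0.45. Medians of the macrophage, lymphocyte, erythroid and pigment cell markers were -0.03, 0.02, -0.06 and 0.29 there.

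No gene passed the threshold for a genotype difference that itself changed between 0 and 24 hpa (0%, smallest FDR 0.166). In that edgeR test 1181 genes had an unadjusted p under 0.05, and DESeq2 gave 79 genes. The 6 smallest p-values belonged to *krt78.7*, *fibin*, *itga7*, *xkr8*, *LOC101730868* and *LOC105945146*, of which *krt78.7* was a DEG at 24 hpa. *krt78.7* was at 2.99 and 3.23 CPM in WT61 at 0 hpa and at 52.4 and 46.7 at 24 hpa, while TRDKO61 was at 366 and 591 and then at 755 and 506. *fibin* was at 105 and 81.5 CPM in WT61 and 47.4 and 40.9 in TRDKO61 at 0 hpa, where it was a lower DEG. *itga7*, a laminin receptor of muscle, was at 86.4 and 106 CPM against 46.1 and 51.6 at 0 hpa and at 38.7 and 47.2 against 68.0 and 70.4 at 24 hpa. *olfm4* was at 10.2 CPM or less in WT61 and at 16.6 or less in TRDKO61 at 0 hpa, so that its difference was seen at 24 hpa, without a call in the test of the change.

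**Figure D4:**
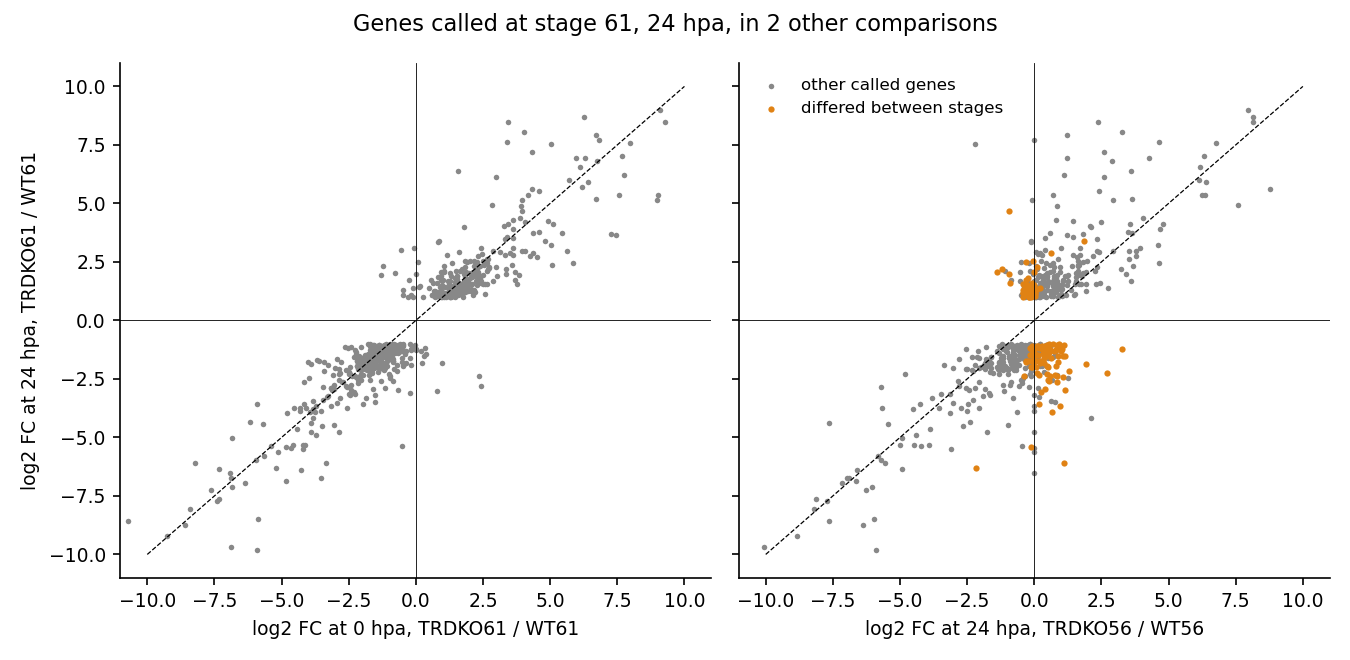
Each point is 1 of the 668 DEGs, with its log2 FC at stage 61, 24 hpa on the y axis and its log2 FC at stage 61, 0 hpa (left) or stage 56, 24 hpa (right, 666 genes tested) on the x axis; the dashed line marks equal values. On the left 646 genes share a sign, and on the right the genes whose difference depended on stage (orange) lie away from the dashed line, some of them (such as *LOC116408737* and *dpp4*) with the same sign at both stages.

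The comparison at stage 56 shares no library with that at stage 61, but it came from the fit to all 24 libraries, which holds both stages. At stage 56, before the climax, when both genotypes regenerate, 308 of 16743 genes were DEGs between TRDKO56 and WT56 at 24 hpa (1.84%). Of the 668 DEGs of stage 61, 134 were DEGs in the same direction at stage 56 (20.1% of the 668 and 43.5% of the 308) and 4 in the opposite one. Along the direction seen at stage 61, the median log2 FC of these genes was 0.46 at stage 56 and 1.71 at stage 61. The genes and their direction were chosen by the stage 61 values, which raises the stage 61 median. The gap between the medians is therefore no support for a smaller difference at stage 56. In a fit to all 24 libraries, 285 genes (1.70%) had a genotype difference that differed between the stages. Leaving out 1 library gave 58 to 297, with 58 without WT61 replicate 1.

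The 6 genes with the smallest p-values in that test were *bgn*, *adamts17*, *camkk2*, *gusb*, *gpd1* and *fscn1*. *bgn* was at 21.5 and 19.1 CPM in WT56 against 36.6 and 38.6 in TRDKO56, the opposite order to stage 61, and the difference of the log2 FC was -2.41 (FDR = 2.2e-06). *adamts17* was at 10.8 and 8.78 CPM in WT56 against 17.4 and 20.1 in TRDKO56 (difference -4.62, FDR = 0.00025). *gusb* was at 60.2 and 73.4 CPM in WT56 against 80.0 and 72.5 in TRDKO56, close to the 65.7 and 70.9 CPM of TRDKO61, so WT61 was the group that stood apart. *gpd1* showed the same pattern, at 32.2 and 34.7 CPM in WT56 against 30.6 and 36.0 in TRDKO56 (difference -1.65, FDR = 0.00062). *camkk2*, a calcium-dependent kinase, was a higher DEG at stage 56 (WT56 12.8 and 14.5 CPM, TRDKO56 55.0 and 59.9 CPM) and did not pass the test at stage 61 (42.0 and 34.9 against 30.5 and 26.8, FDR = 0.24).

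Some T3 response genes and some ribosome biogenesis genes had a genotype difference that depended on the stage. Of the 21 T3 response genes, 2 were higher and none lower DEGs at stage 56 (beside 1.84% of all genes), and the median log2 FC was 0.26 there. The test of the difference between stages was passed by 8 of them, beside 1.70% of all genes. *mmp11* was at 36.4 and 43.5 CPM in WT56 against 77.1 and 97.1 in TRDKO56, a rise where stage 61 showed a fall (difference -2.66, FDR = 0.00066), and *thibz* was at or below 0.72 CPM in all 4 stage 56 libraries. Of the 123 ribosome biogenesis genes, none was a DEG at stage 56, the median log2 FC was -0.06, and 23 passed the test of the difference (beside 1.70% of all genes). This list was drawn up after the stage 61 values at 24 hpa were seen. Those values enter the test, so the 23 are no independent support. *rpf2* was at 111 and 117 CPM in WT56 against 108 and 121 in TRDKO56, and *utp3* at 100.4 and 99.3 against 87.3 and 91.4, so WT61 was the lowest of the 4 groups. TRDKO61 (91.4 and 87.2 CPM for *rpf2*, 75.8 and 79.3 for *utp3*) also lay below both stage 56 groups. At 0 hpa 47 of the 123 were higher DEGs (beside 4.27% of all genes), and at 6 hpa 50, with medians of 0.87 and 0.95.

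**Figure D5:**
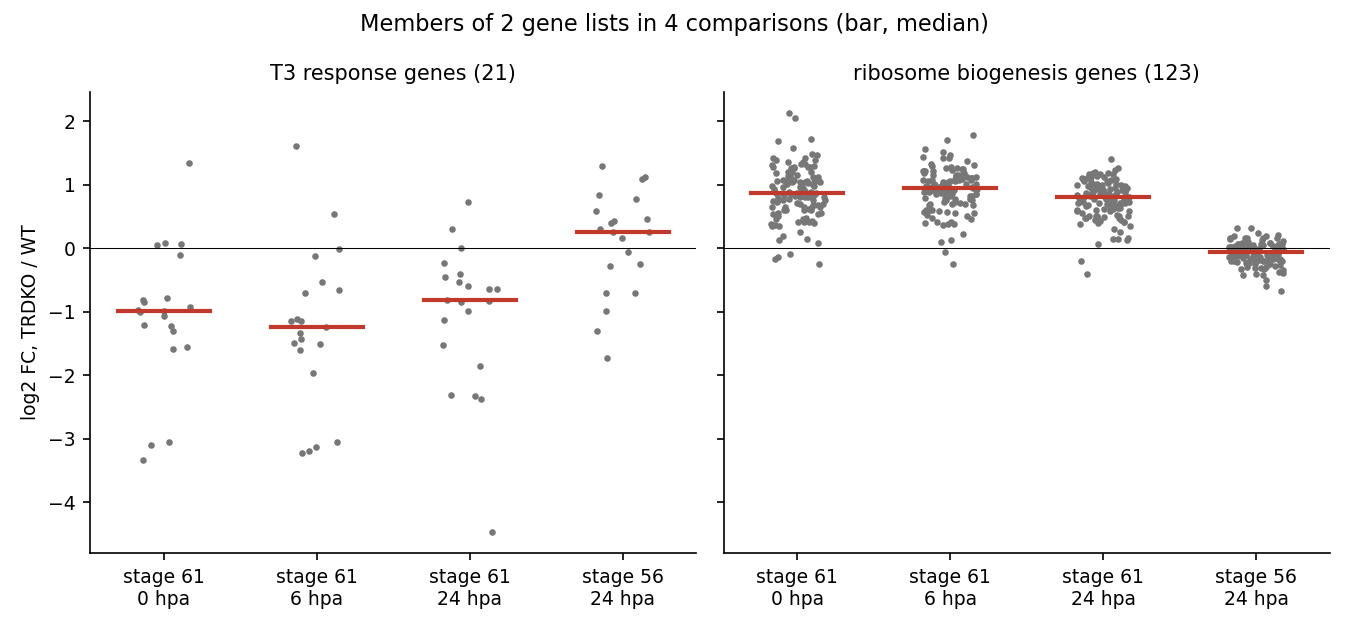
Log2 FC (TRDKO over WT) of each tested T3 response gene (21, left) and ribosome biogenesis gene (123, right) in 4 comparisons, with the median as a red bar. At stage 61 the medians lie between -1.24 and -0.82 for T3 response genes and between 0.80 and 0.95 for ribosome biogenesis genes, and at stage 56 they are 0.26 and -0.06.

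Some genes were DEGs at both stages, each in its own fit. *LOC116408235*, *ctsh* (log2 FC 1.54 at stage 56), *col6a1* (1.05) and *tnmd* (2.12) were higher DEGs in TRDKO56 as well, and *LOC100493748* (-3.46), *LOC105948087* (-3.13) and *elavl3* (-1.84) lower ones. *krt57* was at 5.09 and 1.80 CPM in WT56 against 55.6 and 16.4 in TRDKO56, a higher DEG at stage 56 in the fit to all 24 libraries, where it was not a DEG at stage 61 (FDR = 0.074). Keratins whose genotype difference differed between the stages included *krt12.3*, at 137 and 172 CPM in WT56 against 142 and 138 in TRDKO56 (difference -5.30, FDR = 0.010), and *krt19* (difference -1.99, FDR = 0.031).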

How the data were processed

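RNA-seq of amputated tails covered 24 libraries in 12 groups. The deposited table holds read counts per gene, which the authors made with cutadapt, STAR and featureCounts from poly-A-selected, stranded, paired-end libraries. Tool versions in the submitters' processing notes (cutadapt 3.2, STAR 2.7.7a, Subread 2.0.1) differ in part from those in the study's methods. The strand setting of the counting and the treatment of duplicates and of reads shared between copies were not stated. Coordinates are as deposited, and 99.3% of the symbols listed once shared their start with the RefSeq annotation of UCB_Xtro_10.0. Rows of 2 genes broken across lines were rejoined.

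Counts were tested with edgeR 4.0.16 (limma 3.58.1, R 4.3.3) by filterByExpr, TMM factors and a robust quasi-likelihood fit to the 12 libraries of stage 61 (6 groups, 6 residual degrees of freedom), two-sided, with Benjamini-Hochberg adjustment over all genes tested. The difference of the genotype effect between 0 and 24 hpa came from the same fit, and that between stages from a fit to all 24 libraries. DESeq2 1.42.0 served as an alternative test. CPM use TMM factors over all 24 libraries, and SE is the absolute log2 FC divided by the square root of F. Where every library of a group had at most 3 counts, the fold is a lower bound against 3 counts in each library. Library totals ran from 3956148 to 20731438 counts. The scripts were tested on simulated data.

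Named genes were *thra* and *thrb*, genes named in the study, 4 T3 targets, the 12 DEGs with the largest log2 FC in each direction whose libraries did not overlap and averaged 10 CPM or more, up to 4 DEGs per direction of each list by smallest p, and the 6 smallest p-values of each test of a difference. *pck1*, *muc5ac*, *cxcl2* and *fras1* and the lists of ribosome biogenesis, mucus and glucose genes were chosen after their values were seen. The comparison and the other 28 lists, taken from general knowledge, were chosen with earlier results of these data known. Some genes of these lists are not reported here. A search of promoters for thyroid hormone response elements was not run here. Alternatives were other normalizations, no filter, DESeq2, other sets of libraries, a replicate block, other fold limits and leaving out each library.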

Additional observations from a re-analysis of the deposited data

Results flagged for a closer look

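The genotype difference at 24 hpa differed between stage 61 and stage 56 for 36 of the 111 named genes, beside 1.70% of all genes. This is by the test of that difference in the fit to all 24 libraries (FDR under 0.05 and an absolute difference over 1). Most named genes were chosen by their stage 61 values at 24 hpa or by this same test, so the count is no independent support. Each value is the log2 FC at stage 61 minus the log2 FC at stage 56, so a negative value means a log2 FC that was lower at stage 61. Among proteases and hydrolases the difference was -4.62 for *adamts17*, -4.15 for *dpp4*, -2.97 for *cpa6*, -2.66 for *mmp11*, -2.51 for *fap*, -1.54 for *mmp14*, -2.03 for *gusb* and -1.46 for *hexb*. In the matrix and its receptors it was -2.41 for *bgn*, -3.50 for *itga11*, -1.79 for *itga10*, -1.76 for *col4a6*, -1.53 for *col4a5*, -1.53 for *fras1*, -1.55 for *nid2* and 1.22 for *itga7*.

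For keratins and the mucin it was -5.30 for *krt12.3*, -1.99 for *krt19* and -4.95 for *muc5ac*, the last being higher in TRDKO56 (383 and 135 CPM) than in WT56 (53.6 and 26.7). In metabolism it was -1.65 for *gpd1*, -3.36 for *slc2a2* and -4.58 for *pck1*. Signalling genes gave -3.23 for *dio2*, -2.51 for *camkk2*, -3.82 for *ednrb*, -2.17 for *bmp6*, -1.93 for *il34* and -2.18 for *tnfrsf4*. The CDK inhibitors gave -1.49 for *cdkn2d* and -1.28 for *cdkn1a*, and the actin bundling gene *fscn1* gave -1.47. Of these, *camkk2*, *cdkn1a*, *fscn1* and *itga7* were not DEGs at stage 61.

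Positive differences belonged to the ribosome biogenesis genes *utp3* (1.33), *rsl1d1* (1.47) and *rpf2* (1.14), to *hsp90aa1.1* (1.25), to *LOC116408737* (1.52) and to *itga7*. The cause of the difference between stages was not tested.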

How the results depend on the processing

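The 668 DEGs at 24 hpa became 1381 without the fold limit, of which 52.2% were higher in TRDKO61 in place of 44.6%, and 79 when the fold itself was tested against a log2 FC of 1 (glmTreat). Leaving out 1 library gave 143 to 426. The other 8 alternatives gave 566 to 874. For the change of the genotype difference between 0 and 24 hpa, the count of 0 became 79 with DESeq2, 11 in a fit to all 24 libraries, 7 with no filter and 6 in a fit to the 8 libraries at 0 and 24 hpa, and 0 to 1 with 1 library left out. For the difference between stages, the 285 genes became 481 with DESeq2, 11 with glmTreat and 58 to 297 with 1 library left out. The causes were not tested.

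The labels do not say whether replicate numbers pair the libraries. The deviations of the replicates correlated at 0.19 between the 2 groups at 24 hpa, the highest value, and at -0.26 to 0.08 between other groups. These values do not settle whether the libraries at 24 hpa were paired. With a replicate block the 3 counts were 566, 0 and 268, and 5 of the 82 named DEGs lost their call. Without the filter 14 lost it, in a fit to the 4 libraries alone 10, in a fit to the 8 libraries at 24 hpa 5, with DESeq2 2 (*hba-l3* and *cxcl2*), and with upper quartile factors or all 24 libraries 1 each. No named DEG changed sign. Among genes that were not DEGs, signs turned for values near 0. *cdca8* had a log2 FC of -0.024 with all 24 libraries, -0.019 with RLE factors, -0.016 with upper quartile factors, -0.018 with DESeq2, and -0.011 and -0.014 in the fits to 4 and to 8 libraries. *dio3* had 0.011 with no filter and 0.0063 with the block. With 1 library left out, log2 FC ran from -0.27 to 0.36 for *cdca8*, -0.19 to 0.21 for *dio3*, -0.22 to 0.046 for *casp9*, -0.11 to 0.031 for *xkr8*, -0.44 to 0.25 for *prf1*, -0.44 to 0.23 for *cdkn2b* and -0.048 to 0.77 for *sox9*. With 2 libraries a group, a difference that missed the threshold is not shown to be absent.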
